A study of Arabidopsis thaliana with 76 samples.

Results

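Seedlings of *Arabidopsis thaliana* grown at 17°C were compared between ZT8, the end of the light period, and ZT12, 4 h after lights off. ZT is the time in hours after lights on. The comparison used 8 of the 76 libraries in the series, chosen by their labels alone: WT (accession Col0) at ZT8 and ZT12, and the mutant *ss4-1* at ZT8 and ZT12, with 2 libraries in each of these 4 groups. All 8 shared short days of 8 h light and 16 h dark at 170 µmol light, and each RNA came from a pool of seedlings, 25 by the labels, so fewer cells of a type and less RNA per cell cannot be told apart. *ss4-1* carries an insertion in *SS4*, the gene of starch synthase 4, an enzyme that helps to start starch granules. The genotypes were fitted together, with genotype as a term, which gave 4 libraries at each time. The later time was sampled in the dark and the earlier one at the end of the light, so the hour of the day and the loss of light cannot be told apart here, and nothing in the labels states that the 2 libraries of a group came from separately grown seedlings.

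The plant circadian clock is a network of repressors that follow each other through the day. The MYB factors CCA1 and LHY act around dawn, the pseudo-response regulators act in turn from morning to evening, and the evening complex of ELF3, ELF4 and LUX acts at dusk, while GIGANTEA stabilises a photoreceptor that removes TOC1. Dusk is also the hour at which photosynthesis stops, and a leaf then lives on the starch it stored. Genes for sugar export, amino acid breakdown and nitrogen storage are known to respond to that switch.

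The libraries held 6638949 to 12444364 read counts on genes. Levels are given as CPM, read counts scaled to the TMM-corrected size of each library, which is not divided by gene length and so is compared only between libraries for the same gene. Per-library values are always given in the order WT replicate 1, WT replicate 2, *ss4-1* replicate 1, *ss4-1* replicate 2. *SS4* itself stood at 152, 137, 158 and 136 CPM at ZT8 and at 129, 190.1, 121 and 129 CPM at ZT12. The mutant libraries thus lay within the range of the WT libraries or just beside it, and a count over the whole gene does not check the insertion. Markers of green leaf tissue were high in every library (summed CPM of 5 genes 11672 to 14980 at ZT8 and 14826 to 17829 at ZT12), and markers of seed storage were at 0.721 CPM or below.

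WT ZT12 replicate 2 stood apart. It lay at least 2-fold off the mean of the other 3 ZT12 libraries at 1308 genes, where each of the others did so at 70 to 120 genes. Its correlation with WT ZT12 replicate 1 was 0.958, against 0.983 to 0.989 for the other replicate pairs (Pearson's r of log2 CPM across genes, as a description). The summed level of 5 root hair markers was 107.9 CPM in it and 27.3 to 43.5 CPM in the other 7 libraries, and that of 5 root endodermis markers was 127.0 CPM against 32.5 to 58.1 CPM. All 5 root hair and all 5 endodermis markers had counts. The overall and list counts are therefore given with and without this library. A call without it was a condition for the 30 genes named for their size, so for them that call is not a separate check. The part of root tissue in any result was not tested. The plot of marker levels and *LHCB2.1* by library shows the place of this library among the 8.

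**Figure D1:**
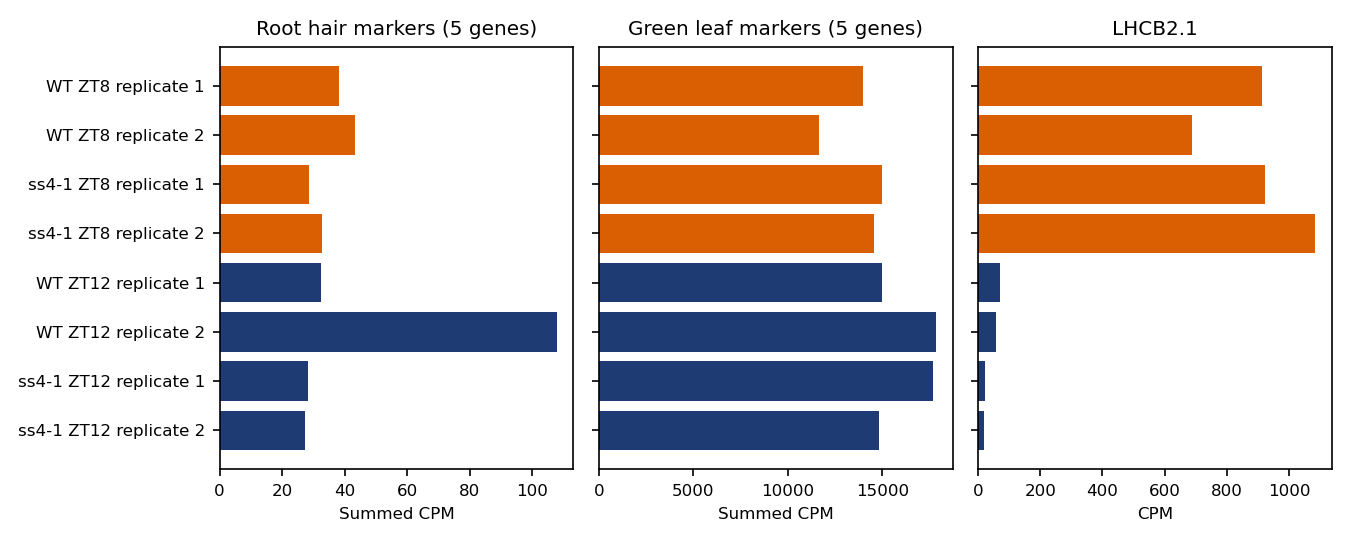
Bars give, for each of the 8 libraries, the summed CPM of 5 root hair markers, the summed CPM of 5 green leaf markers and the CPM of LHCB2.1 (orange, ZT8, and blue, ZT12). WT ZT12 replicate 2 is highest in root hair markers at 107.9 CPM, while LHCB2.1 is at 19.2 to 69.9 CPM in the ZT12 libraries against 689 to 1084 CPM at ZT8.

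Transcript levels differed widely between the 2 times. Of 20041 genes tested, 3508 were higher and 3423 lower at ZT12 at an adjusted p under 0.05 (edgeR quasi-likelihood test, Benjamini-Hochberg adjustment over all genes tested), which is 34.6% of the genes in either direction, 17.5% higher and 17.1% lower. Most changes were small, with a median size of 0.66 on the log2 scale among called genes, and 833 genes rose and 908 fell by 2-fold or more. The 4 ZT12 libraries did not overlap the 4 ZT8 libraries at 35.1% of all genes tested. Without WT ZT12 replicate 2, 4408 genes were higher and 4508 lower (43.9% of 20328, 21.7% higher and 22.2% lower), and the biological coefficient of variation fell from 0.148 to 0.0920. Of the 6931 genes called in 8 libraries, 6803 were called in the same direction without it and 0 in the other direction. Counts in the gene lists below stand beside these shares of all genes, 17.5% higher and 17.1% lower in 8 libraries.

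**Figure D2:**
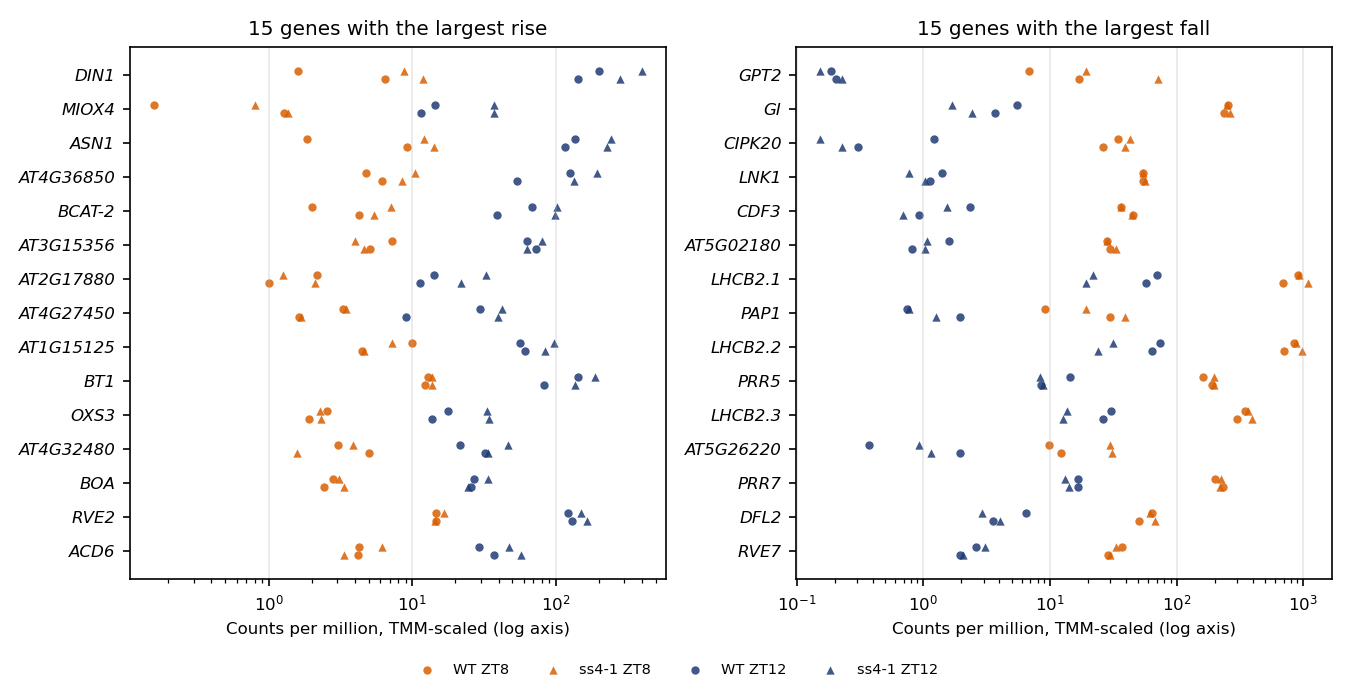
Each point is the CPM of a gene in a library (log axis) for the 15 genes with the largest rise and the 15 with the largest fall that passed the naming rule. Circles are WT and triangles ss4-1, orange is ZT8 and blue is ZT12, and by the rule the colours do not overlap in any row.

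Upstream sequences of some genes that changed are shown first. All of those shown carry the same short word, so they are not a typical sample of the change. The evening element (AAAATATCT) is bound by CCA1 and its MYB relatives. In the 250 bases before the RefSeq gene start (TAIR10.1), read on both strands, it occurred in 4.90% of the genes that fell (165 of 3364 with a window), in 1.55% of those that rose (54 of 3475) and in 2.49% of all genes tested (491 of 19688). Among genes that fell at least 4-fold it was present in 10.6% (20 of 188), and 3 of the 15 largest named falls and 1 of the 15 largest named rises held it. The same windows held the G-box CACGTG in 9.16% of the genes that fell, 7.19% of those that rose and 7.26% of all, and the CCA1 binding site AAAAATCT in 8.15%, 6.07% and 6.72%. A heat shock element was found in 0.68%, 0.37% and 0.41%. Among genes that fell at least 4-fold, the G-box was present in 14.4% and the CCA1 binding site in 6.38%. Among genes that rose at least 4-fold, these shares were 9.80% and 3.27%, and the evening element was present in 1.31%. None of the spelled words contains another, and these are counts of letters, not of bound sites. The 5 falling genes and 1 rising gene below are written 5′ to 3′ on the strand of the gene, ending at the base before its start. Capitals mark the evening element, read as AAAATATCT or, on the other strand, AGATATTTT, and in *LUX* and *BOA* also the G-box:
PRR5 (chr5:8358547-8358796, minus strand): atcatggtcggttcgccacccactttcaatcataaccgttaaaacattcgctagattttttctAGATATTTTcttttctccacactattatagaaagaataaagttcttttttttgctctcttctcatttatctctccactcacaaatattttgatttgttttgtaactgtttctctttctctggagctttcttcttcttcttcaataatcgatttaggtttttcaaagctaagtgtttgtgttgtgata
LUX (chr3:17182792-17183041, plus strand): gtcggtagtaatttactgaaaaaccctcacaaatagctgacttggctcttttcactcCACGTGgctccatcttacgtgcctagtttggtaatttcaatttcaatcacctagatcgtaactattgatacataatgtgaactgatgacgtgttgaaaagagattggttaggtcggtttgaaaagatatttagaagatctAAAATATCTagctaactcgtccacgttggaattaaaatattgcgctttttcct
FKF1 (chr1:25508389-25508638, plus strand): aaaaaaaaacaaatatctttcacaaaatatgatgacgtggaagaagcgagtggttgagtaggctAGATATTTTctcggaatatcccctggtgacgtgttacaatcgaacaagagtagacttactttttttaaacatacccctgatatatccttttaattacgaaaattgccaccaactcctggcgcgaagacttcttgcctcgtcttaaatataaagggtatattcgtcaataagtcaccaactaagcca
GPT2 (chr1:22824164-22824413, plus strand): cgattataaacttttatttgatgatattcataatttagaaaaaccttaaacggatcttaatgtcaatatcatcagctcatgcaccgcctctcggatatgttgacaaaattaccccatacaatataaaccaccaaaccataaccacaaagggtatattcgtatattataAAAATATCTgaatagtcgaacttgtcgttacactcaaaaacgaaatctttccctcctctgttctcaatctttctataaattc
RVE7 (chr1:6308244-6308493, minus strand): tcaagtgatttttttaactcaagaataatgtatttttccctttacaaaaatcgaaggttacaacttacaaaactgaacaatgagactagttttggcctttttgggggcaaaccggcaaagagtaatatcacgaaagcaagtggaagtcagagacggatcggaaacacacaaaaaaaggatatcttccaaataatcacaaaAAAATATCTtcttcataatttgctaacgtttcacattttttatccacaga
BOA (chr5:24003638-24003887, plus strand): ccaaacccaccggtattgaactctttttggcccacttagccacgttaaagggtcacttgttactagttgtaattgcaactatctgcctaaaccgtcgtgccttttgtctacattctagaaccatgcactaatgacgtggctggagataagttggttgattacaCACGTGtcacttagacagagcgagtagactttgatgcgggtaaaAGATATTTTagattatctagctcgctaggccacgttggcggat

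The first base of the element lay 187 bases before the start in *PRR5*, 53 in *LUX*, 186 in *FKF1*, 82 in *GPT2* and 50 in *RVE7*. For *PRR5* this holds for the RefSeq start only. The gene as counted spans 8355951 to 8358873, so the whole *PRR5* window and its element lie inside that gene model. *BOA*, a relative of *LUX* with both words in its window (43 and 87 bases before the start), rose while *LUX* fell. *GI* and *LNK1*, with the largest falls among clock genes, held no match in their windows, which says only that these letters are not within 250 bases.

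The clearest shared rise was in genes known to be induced by sugar starvation or darkness. This list, like the others, was chosen with earlier results of these data known, so its counts are a description. Of 25 listed genes tested, 23 rose and 1 fell (median log2 change 1.71, against -0.00 over all genes tested), and without WT ZT12 replicate 2 the counts were the same (median 1.87). In 23 of the 25 all 4 ZT12 libraries lay above all 4 ZT8 libraries, against 17.5% of all genes tested. *DIN1* (AT4G35770, chromosome 4, 16944941 to 16946192 in TAIR10), a marker of dark-treated and ageing leaves, was at 1.60, 6.44, 8.84 and 11.9 CPM at ZT8 and at 200.3, 144, 397 and 282 CPM at ZT12. The levels rose in each genotype, and no ZT12 library came near the ZT8 range. Its log2 change was 5.21 ± 0.32 (± SE here and below, adjusted p = 3.43e-06), the largest rise among the named genes. The SE was worked back from the test, as the size of the log2 change divided by the square root of the F statistic. *ASN1* (AT3G47340, chromosome 3, 17437884 to 17441243), which makes asparagine as a nitrogen store when carbon is short, went from 1.84, 9.26, 12.2 and 14.1 CPM to 137, 116, 244 and 226 CPM, a log2 change of 4.33 ± 0.32 (adjusted p = 1.01e-05). The groups were again far apart, and the *ss4-1* libraries were the higher ones at ZT12.

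Other members of this group break down amino acids or regulate sugar signalling. *MCCA*, a subunit of the enzyme that degrades leucine, rose from 18.9, 17.2, 21.5 and 16.6 CPM to 122, 97.8, 156 and 149 CPM (2.80 ± 0.13, adjusted p = 8.14e-07), and *BT2*, a BTB and TAZ domain protein, rose from 49.9, 44.2, 77.2 and 47.0 CPM to 478, 400.4, 547 and 529 CPM (3.17 ± 0.16, adjusted p = 1.08e-06). In both genes the 4 libraries of a time lay close together relative to the gap between the times. The proline dehydrogenase gene *ERD5* (2.19), the dormancy marker *DRM1* (2.49), the raffinose synthase family gene *DIN10* (2.28) and the trehalose phosphate synthase family genes *TPS8* (2.22), *TPS10* (1.68) and *TPS11* (1.71) also rose, on the log2 scale. Their relative *TPS5* was the exception in the list. It stood at 66.2, 94.7, 80.3 and 115 CPM at ZT8 and 26.4, 23.4, 23.8 and 26.4 CPM at ZT12, with no overlap in the opposite direction (-1.82 ± 0.15, adjusted p = 2.37e-05). *DIN9* did not pass the test (0.51 ± 0.24, adjusted p = 0.126).

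Among the 15 genes with the largest rises by rule, *DIN1* and *ASN1* belong to that list, and *BCAT-2* also acts on amino acids. *BCAT-2*, a branched-chain amino acid transaminase, rose from 2.00, 4.27, 7.12 and 5.45 CPM to 68.4, 39.2, 102 and 98.9 CPM (4.06 ± 0.23, adjusted p = 2.5e-06). *MIOX4*, which oxidises myo-inositol, was near 1 CPM at ZT8 (0.160, 1.27, 0.803 and 1.36) and stood at 14.4, 11.4, 36.9 and 37.3 CPM at ZT12 (4.70 ± 0.33, adjusted p = 8.17e-06). In both genes the WT ZT12 libraries were below the *ss4-1* ZT12 libraries but above every ZT8 library. *BT1*, the closest relative of *BT2*, rose from 12.8, 12.3, 13.8 and 13.7 CPM to 144, 82.5, 189 and 137 CPM (3.37 ± 0.20, adjusted p = 2.68e-06).

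The remaining named rises are less well connected to each other. *OXS3* (3.34, tied to stress tolerance) and *ACD6* (3.22, an ankyrin protein of defence) rose, as did a PQ-loop protein gene AT4G36850 (4.07), a legume lectin family gene AT3G15356 (3.72), a DnaJ-domain gene AT2G17880 (3.49), a YGL and LRDR motif gene AT4G27450 (3.48), a methyltransferase family gene AT1G15125 (3.46) and a DUF506 gene AT4G32480 (3.26), all as log2 changes with adjusted p of 0.000176 or below. In AT4G27450 the library WT ZT12 replicate 2 was at 9.09 CPM against 29.7 to 42.3 CPM in the other 3, still above every ZT8 library (1.63 to 3.44 CPM).

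Most of the clock fell. All 5 pseudo-response regulators were lower at ZT12 (median log2 change -3.41), with no overlap in any of them and with the same count without WT ZT12 replicate 2. *PRR7* stood at 201, 234, 222 and 219 CPM at ZT8 and at 16.6, 16.6, 13.1 and 14.3 CPM at ZT12 (-3.85 ± 0.11, adjusted p = 4.37e-08). *PRR5* fell from 163, 189, 197 and 197 CPM to 14.3, 8.58, 8.34 and 8.76 CPM (-4.21 ± 0.18, adjusted p = 5.1e-07), with WT ZT12 replicate 1 the highest of the 4 ZT12 libraries. *TOC1*, the evening member, fell much less, from 178, 193, 194 and 171 CPM to 85.4, 86.2, 83.4 and 86.6 CPM (-1.11 ± 0.09, adjusted p = 1.32e-05), without overlap and with its 4 ZT12 libraries close together. *PRR9* (-3.41), the morning member, was already low at ZT8 (4.94 to 7.44 CPM), and *PRR3* fell by 0.63 on the log2 scale.

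*GI* (AT1G22770, chromosome 1, 8061844 to 8067716), which carries timing into the photoperiod pathway, had the largest fall of any clock gene. It was at 257, 238, 252 and 263 CPM at ZT8 and at 5.52, 3.68, 1.70 and 2.42 CPM at ZT12, a log2 change of -6.21 ± 0.23 (adjusted p = 2.27e-07). The ZT8 libraries differed by little, and the 2 WT libraries were above the 2 *ss4-1* libraries at ZT12. Of the 9 genes in the group of the evening complex, *GI* and the ZTL family, 4 fell and 2 rose, with or without WT ZT12 replicate 2. *FKF1*, a blue light receptor that works with GI, fell from 108, 109, 125 and 133 CPM to 10.2, 8.38, 7.73 and 10.1 CPM (-3.68 ± 0.12, adjusted p = 7.8e-08). In the evening complex, *LUX* fell from 79.8, 80.0, 97.9 and 84.9 CPM to 9.83, 6.43, 6.64 and 7.49 CPM (-3.47 ± 0.15, adjusted p = 5.03e-07) and *ELF4* fell by 1.65, while *ELF3* did not pass the test (0.28 ± 0.12, adjusted p = 0.099). *ZTL* (0.02 ± 0.11, adjusted p = 0.933) and *LKP2* (0.12 ± 0.11, adjusted p = 0.404), the other 2 photoreceptor F-box genes, did not pass it either.

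The 2 genes of that group that rose were *BOA* and *JMJD5*. *BOA*, also called *NOX*, went from 2.80, 2.45, 3.10 and 3.35 CPM to 27.1, 25.7, 33.7 and 24.3 CPM (3.24 ± 0.15, adjusted p = 7.6e-07). *JMJD5*, a jumonji domain oxygenase gene that keeps the period, went from 27.3, 28.7, 30.8 and 27.6 CPM to 138, 135, 123 and 119 CPM (2.17 ± 0.09, adjusted p = 5.03e-07). Neither gene overlapped between the times, and the spread within a time was small in both.

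In the group of morning MYB factors and LNK coactivators, 6 of 12 fell and 3 rose (median log2 change -1.09), and 7 fell and 3 rose without WT ZT12 replicate 2. The LNK genes, whose proteins activate afternoon and evening genes with RVE8, moved together. *LNK1* fell from 54.3, 53.9, 54.7 and 56.1 CPM to 1.404, 1.12, 0.773 and 1.04 CPM (-5.60 ± 0.14, adjusted p = 4.1e-08), *LNK2* fell by 3.05, *LNK4* by 4.09 and *LNK3*, with 53 counts in all at ZT8 and 11 at ZT12, by 2.08. *RVE7* fell from 37.2, 28.6, 33.3 and 30.1 CPM to 2.62, 1.94, 3.09 and 2.07 CPM (-3.75 ± 0.17, adjusted p = 6.96e-07). *RVE2*, its relative, moved the opposite way, from 14.7, 14.6, 16.8 and 14.4 CPM to 122, 130.2, 149.9 and 165 CPM (3.22 ± 0.10, adjusted p = 7.59e-08), and *RVE1* (1.83) and *RVE4* (0.67) rose as well. The dawn genes were near their lowest point at both times: *CCA1* was at 3.84, 4.63, 3.79 and 4.71 CPM and then 1.31, 2.45, 1.08 and 0.346 CPM (-1.73 ± 0.37, adjusted p = 0.00542). *LHY* was at 2.64, 2.63, 1.72 and 3.56 CPM and 1.78, 2.86, 2.01 and 1.15 CPM, did not pass the test (-0.45 ± 0.32, adjusted p = 0.304) and overlapped between the times, as did *RVE8* (-0.45 ± 0.31, adjusted p = 0.3). AT5G52660, the remaining MYB member, did not pass it in 8 libraries and passed it without WT ZT12 replicate 2 (-0.37 ± 0.14 with 8 libraries, adjusted p = 0.0613, and -0.41 without, adjusted p = 0.0271).

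**Figure D3:**
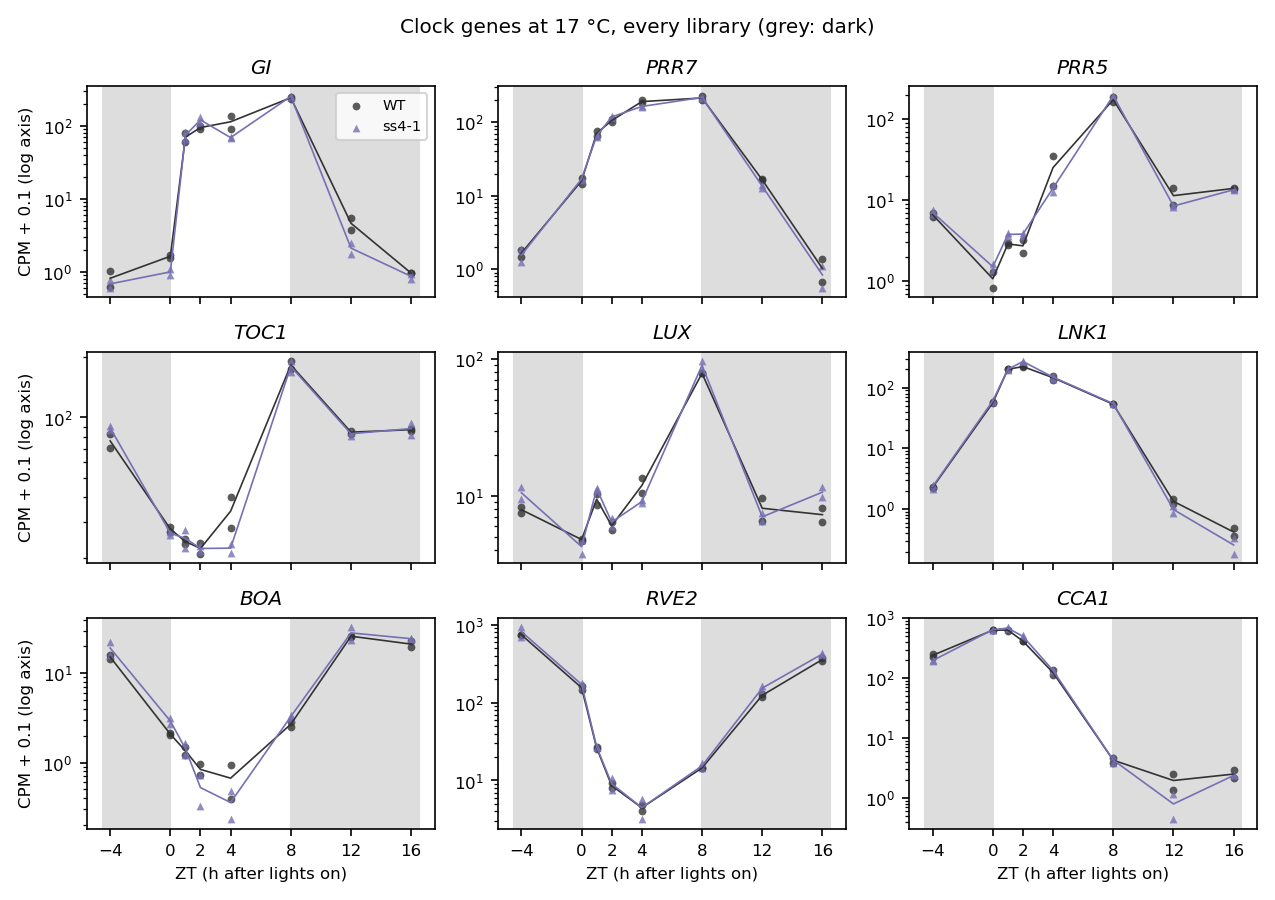
CPM plus 0.1 (log axis) of 9 clock genes against ZT at 17°C, with every WT (circles) and ss4-1 (triangles) library as a point, lines through group means and the dark period in grey. GI, PRR7 and PRR5 drop between ZT8 and ZT12, BOA and RVE2 rise, and CCA1 is at 0.346 to 4.71 CPM at both times.

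Set in the whole 17°C series of 8 time points, the interval was one flank of a longer wave. The mean level of *GI* over WT and *ss4-1* was 249 CPM at ZT8, its highest point, 3.26 CPM at ZT12 and 0.809 CPM at ZT16, while *RVE2* continued from 139 CPM at ZT12 to 390 CPM at ZT16 and 778 CPM at ZT-4. *CCA1* was at 658 CPM at ZT1 and at 1.28 CPM at ZT12. Of the genes that rose, 40.3% had their highest mean at ZT12, 22.3% at ZT0 and 18.7% at ZT-4 (17.85%, 13.5% and 8.75% of all genes tested), and of the genes that fell, 41.9% had it at ZT8 and 27.7% at ZT2 (17.5% and 14.8% of all). These shares use the same ZT8 and ZT12 libraries as the comparison and are a description.

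Of 9 output and photoperiod genes tested, 5 fell and 1 rose, with or without WT ZT12 replicate 2. *CDF3*, a DOF repressor of flowering that FKF1 and GI remove, fell from 36.8, 45.4, 36.2 and 44.3 CPM to 2.34, 0.919, 1.55 and 0.692 CPM (-4.86 ± 0.25, adjusted p = 1.39e-06), and *CDF1* fell by 2.51. *CO*, the flowering activator that CDF proteins repress, was the 1 member that rose, from 1.68, 2.54, 2.53 and 2.83 CPM to 8.14, 5.82, 9.27 and 10.6 CPM (1.81 ± 0.20, adjusted p = 0.000124). All of these were without overlap. The RNA-binding protein genes *GRP8* (-1.56) and *GRP7* (-0.39) fell as well.

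Among the phytochrome interacting factors, which promote growth in the dark, 3 of 7 fell and 2 rose, again with or without that library. *PIF4* fell from 71.0, 84.0, 72.4 and 77.8 CPM to 8.14, 9.19, 5.41 and 4.61 CPM (-3.49 ± 0.16, adjusted p = 7.05e-07), and *PIF5* fell from 47.7, 55.6, 51.4 and 55.8 CPM to 8.43, 10.01, 6.95 and 7.26 CPM (-2.68 ± 0.13, adjusted p = 8.14e-07). *PIF7* fell by 1.67, with WT ZT12 replicate 2 the highest ZT12 library (23.1 CPM against 7.73 to 11.8). *PIF1* (0.50) and *PIF3* (0.50) rose, *PIF1* not without WT ZT8 replicate 1, *PIF6* did not pass the test and *UNE10* did not either. Of 10 shade and PIF target genes, which PIF4 and PIF5 are known to switch on, 1 rose (*PAR1*, 1.21) and 2 fell (*PIL1*, -1.45, and *ATHB2*, -0.64), shares close to the background and the same counts without WT ZT12 replicate 2. Without any 1 of the 4 *ss4-1* libraries, 0 of the 10 fell.

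Light signalling and light-induced genes, 22 in all, gave 12 falls and 6 rises, with the same counts without WT ZT12 replicate 2. The B-box factors split. *BBX24*, a repressor of the light response, fell from 151, 131, 153 and 146 CPM to 13.1, 14.5, 12.98 and 13.02 CPM (-3.43 ± 0.10, adjusted p = 4.37e-08), and *BBX22* (-3.04) and *BBX18* (-4.42) fell too. *BBX20* rose from 11.5, 12.5, 13.8 and 10.1 CPM to 31.6, 32.8, 38.8 and 30.8 CPM (1.48 ± 0.13, adjusted p = 2.66e-05). *RUP1*, a repressor of the UV-B response, rose by 1.00. None of these overlapped. *ELIP1*, an early light-induced protein of the thylakoid, fell by 2.99, while the photoreceptor genes *PHYA* (0.58), *CRY1* (0.35) and *CRY2* (0.42) rose slightly and *PHYB* (-0.43) fell. *HY5* did not pass the test (0.16 ± 0.14, adjusted p = 0.415).

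The nuclear genes for light-harvesting proteins did not move as a block. Of 21 tested, 11 fell and 2 rose (median log2 change -0.41), and 13 fell and 2 rose without WT ZT12 replicate 2. The number that fell was 6 or 7 when either WT replicate 1 library or any 1 of the *ss4-1* libraries was left out. The 3 *LHCB2* genes, whose proteins form the mobile antenna of photosystem II, fell far more than the rest. *LHCB2.1* (AT2G05100, chromosome 2, 1823240 to 1824425) was at 913, 689, 923 and 1084 CPM at ZT8 and at 69.9, 57.3, 21.9 and 19.2 CPM at ZT12 (-4.58 ± 0.38, adjusted p = 2.09e-05). Both genotypes lost most of the transcript, and the 2 *ss4-1* libraries ended below both WT libraries. *LHCB2.2* (-4.25 ± 0.31, adjusted p = 1.01e-05) and *LHCB2.3* (-4.13 ± 0.26, adjusted p = 3.73e-06) gave the same pattern, but the 3 genes are near-identical copies that can share reads, so they are not 3 separate findings.

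The *LHCB1* genes code for the main antenna protein. *LHCB1.1* was at 2653, 2259, 2632 and 2947 CPM at ZT8 and at 2474, 2961, 2798 and 2151 CPM at ZT12, with full overlap (-0.01 ± 0.14, adjusted p = 0.954), and *LHCB1.3* rose by 0.45, a call that was lost on leaving out any 1 of 6 libraries. These copies can share reads too. Among the minor antenna genes, *LHCB4.2* (-1.62) and *LHCB6* (-0.85) fell without overlap, and *LHCB4.3*, a relative of *LHCB4.2*, rose from 8.09, 3.99, 7.23 and 5.34 CPM to 8.89, 16.3, 16.53 and 12.3 CPM (1.12 ± 0.26, adjusted p = 0.00792).

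The *LHCB2* genes were also those for which the 2 genotypes came nearest to a difference. The test of the difference in evening change between *ss4-1* and WT called 0 of 20041 genes in 8 libraries (edgeR, 637 genes at an unadjusted p under 0.05, background 0%). DESeq2 called 3, all of them *LHCB2* genes (adjusted p = 9.7e-08 for *LHCB2.1*, 2.2e-05 for *LHCB2.2* and 0.0030 for *LHCB2.3*). The edgeR test with all 32 libraries in the fit called the same 3 genes (adjusted p = 0.0019, 0.027 and 0.032, in that order). Both of these fits kept both WT ZT12 libraries. In edgeR with 8 libraries none of the 3 genes was called. *LHCB2.1* fell by 3.65 in WT and by 5.61 in *ss4-1*, a difference of -1.96 on the log2 scale (adjusted p = 0.735), and without WT ZT12 replicate 2 the adjusted p was 0.0135 for *LHCB2.1*, 0.0391 for *LHCB2.2* and 0.0516 for *LHCB2.3*. Without that library WT at ZT12 is a single library, whose spread the fit takes from the other groups. With it left out, 2 of 20328 genes (0.00984%) were called. Among genes with a more positive change in *ss4-1* the smallest adjusted p was 0.944, a tied value that many genes share, so none is singled out. Fitted on its own within the same model, WT gave 1721 genes higher (8.59%) and 1619 lower (8.08%), and *ss4-1* gave 1698 (8.47%) and 1871 (9.34%). Leaving out the other WT ZT12 library instead gave 1956 genes with a genotype difference, so such counts rest on which of the 2 WT ZT12 libraries stands for WT.

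Genes of the Calvin cycle went the other way from the antenna genes at 17°C, though not at the warmer temperatures given further on. Of 19 tested, 6 rose and 0 fell (median log2 change 0.30), and 8 rose and 1 fell without WT ZT12 replicate 2. *CP12-2*, a small protein that ties up Calvin cycle enzymes in the dark, rose from 129, 88.3, 129 and 87.6 CPM to 295, 442, 369 and 285 CPM (1.68 ± 0.19, adjusted p = 0.000128). Its relative *CP12-3* rose from 4.89, 3.36, 3.33 and 3.77 CPM to 15.6, 13.6, 17.5 and 16.48 CPM (2.02 ± 0.17, adjusted p = 2.16e-05), and *CP12-1* rose by 0.48. Neither *CP12-2* nor *CP12-3* overlapped between the times. The Rubisco small subunit genes *RBCS1B* (0.68) and *RBCS2B* (0.59) rose, and *RBCS1A* (0.27 ± 0.12, adjusted p = 0.105) and *RBCS3B* (0.26 ± 0.13, adjusted p = 0.144) did not pass the test.

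In chlorophyll synthesis, 7 of 17 genes fell and 1 rose (9 and 2 without WT ZT12 replicate 2). *CAO*, which makes chlorophyll b, had the largest fall, from 99.8, 108, 119 and 131 CPM to 16.48, 21.8, 17.2 and 16.0 CPM (-2.67 ± 0.13, adjusted p = 1.06e-06). *HEMA1*, the first committed enzyme of the pathway, fell from 199, 240.3, 244 and 314 CPM to 92.8, 62.7, 102 and 76.6 CPM (-1.57 ± 0.16, adjusted p = 6.32e-05). Both were without overlap. *PORA*, for a light-dependent reductase of the pathway, had 40 counts at ZT8 and 6 at ZT12, a ratio per read sequenced of 5.76 (exact interval 2.43 to 16.6), or 8.81 without *ss4-1* ZT12 replicate 2. *CRD1* (-1.31), *PORB* (-1.23), *CHLH* (-1.11) and *GUN4* (-0.97) fell too, and *FLU*, a repressor of the pathway in the dark, was the 1 member that rose (0.36).

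**Figure D4:**
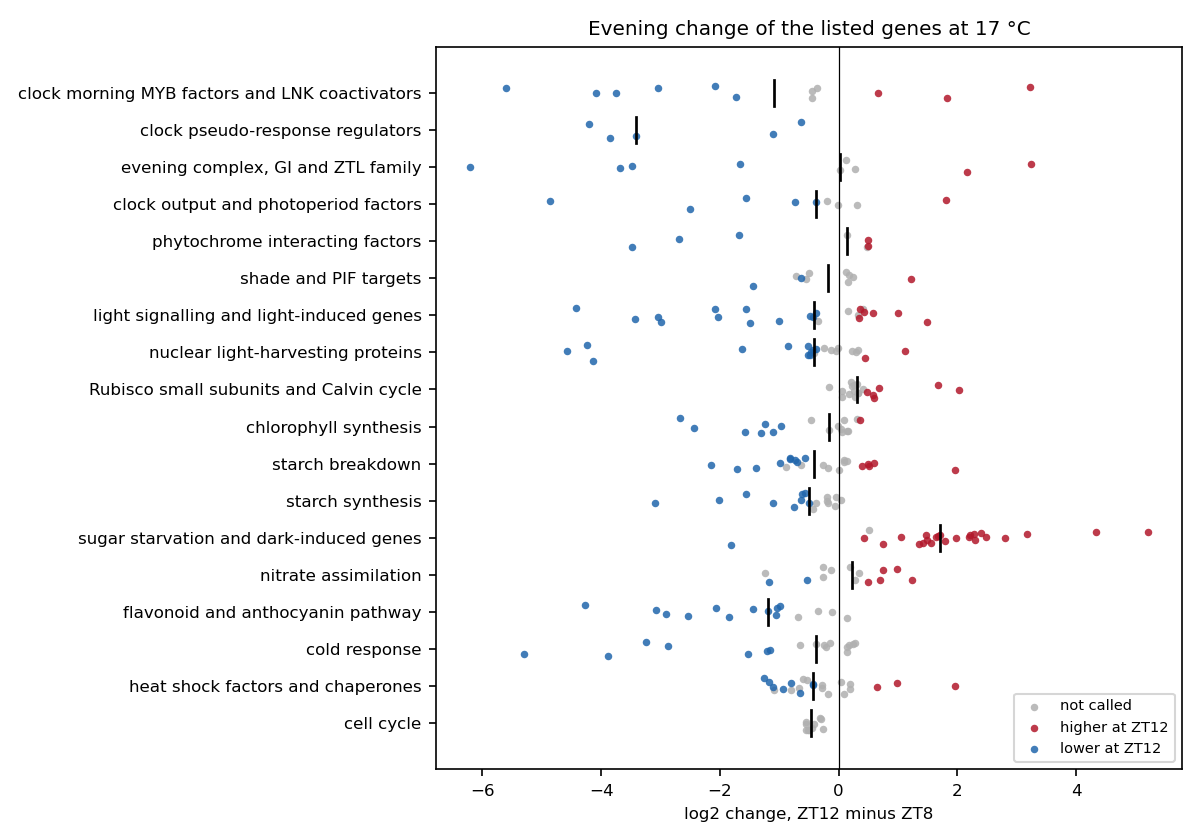
Each point is the log2 change of a gene (ZT12 minus ZT8, 8 libraries) in 18 lists, red if higher and blue if lower at an adjusted p under 0.05 and grey if not called, with the median of each list as a black bar. The sugar starvation list has 23 of 25 genes in red, and the pseudo-response regulators have 5 of 5 in blue.

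Starch genes fell more often than they rose. In starch breakdown, 9 of 22 fell and 5 rose (40.9% and 22.7%, against 17.1% and 17.5% of all genes tested). Without WT ZT12 replicate 2 the counts were 13 and 5. *PHS2*, a cytosolic glucan phosphorylase, fell from 683, 784, 822 and 929 CPM to 184, 247, 147 and 158 CPM (-2.14 ± 0.17, adjusted p = 1.9e-05), and *DPE2*, which handles the maltose that leaves the chloroplast, fell from 391, 473, 498 and 585 CPM to 151, 169, 126 and 142 CPM (-1.72 ± 0.14, adjusted p = 2.2e-05). Each of these was lower in every ZT12 library. *BAM3*, the main amylase of leaf starch, fell by 1.38. *BAM9*, a member of the amylase family without activity, rose from 5.05, 3.72, 5.05 and 3.25 CPM to 15.7, 16.2, 19.3 and 15.9 CPM (1.97 ± 0.17, adjusted p = 2.94e-05), and *BAM4* rose by 0.59.

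In starch synthesis, 9 of 17 fell and 0 rose, and without WT ZT12 replicate 2 the number that fell was 14. *GBSS1*, which makes amylose, fell from 10.6, 22.0, 23.2 and 67.4 CPM to 2.43, 4.39, 2.63 and 3.11 CPM (-3.09 ± 0.47, adjusted p = 0.000798). *APL3*, a large subunit of ADP-glucose pyrophosphorylase, fell from 34.0, 67.2, 50.5 and 79.8 CPM to 9.74, 21.2, 10.5 and 14.9 CPM (-2.02 ± 0.30, adjusted p = 0.000707). The ZT8 levels of both genes varied widely, with *ss4-1* replicate 2 highest and WT replicate 1 lowest, and the ZT12 levels did not reach them. *GPT2*, a plastid carrier of glucose 6-phosphate outside these lists, shared that spread. It was at 6.89, 17.0, 19.4 and 70.9 CPM at ZT8 and had 2, 2, 1 and 2 counts at ZT12, 7 in all against 1119. Per read sequenced it was 138 times as abundant at ZT8, with an exact interval of 66.8 to 344 (Clopper-Pearson on the counts, 95%, covering counting error only). With *ss4-1* ZT8 replicate 2 left out, which held 677 of the 1119 counts, the ratio was 71.3 (34.3 to 178). Its adjusted p was 7.67e-05.

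The flavonoid and anthocyanin genes fell, 11 of 15 with 0 rising (median log2 change -1.18), and 14 of 15 fell without WT ZT12 replicate 2. *PAP1*, the MYB activator of anthocyanin synthesis, fell from 9.21, 29.9, 19.4 and 39.1 CPM to 0.749, 1.94, 0.773 and 1.27 CPM (-4.28 ± 0.49, adjusted p = 0.000148). *LDOX*, a late enzyme of the pathway, fell from 83.9, 204, 218 and 310.3 CPM to 14.7, 25.3, 11.6 and 41.6 CPM (-3.07 ± 0.40, adjusted p = 0.000302), and *DFR*, which acts before it, fell by 2.91. All 3 genes were lowest at ZT8 in WT replicate 1, as *GPT2* and *GBSS1* were. They did not overlap between the times, in *PAP1* by the naming rule. *CHS*, the entry enzyme, fell by 1.05 (adjusted p = 0.0195) with overlap.

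The remaining named falls come from other pathways. *CIPK20*, a kinase of calcium signalling, fell from 34.7, 26.2, 43.2 and 39.4 CPM to 1.22, 0.306, 0.155 and 0.231 CPM (-6.02 ± 0.35, adjusted p = 2.68e-06), and WT replicate 1 was the highest of the ZT12 libraries. The amino acid transporter family gene AT5G02180 fell from 28.1, 29.7, 28.1 and 33.1 CPM to 1.59, 0.817, 1.08 and 1.04 CPM (-4.68 ± 0.18, adjusted p = 3.15e-07). The ChaC-like gene AT5G26220 (-4.06) and the GH3 family gene *DFL2* (-3.80) fell as well.

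Of 14 nitrogen genes, 5 rose and 2 fell (35.7% and 14.3%, against 17.5% and 17.1% of all genes tested). Without WT ZT12 replicate 2 the counts were 6 and 5. The nitrate reductase genes *NIA1* and *NIA2* rose, *NIA1* from 161, 131, 161 and 157 CPM to 414, 287, 308 and 422 CPM (1.23 ± 0.15, adjusted p = 0.000175) and *NIA2* by 0.98. *NIR1* (-0.53), for the next enzyme, fell, as did *G6PD3* (-1.17). The transporter gene *NRT2.1* shows what 1 library can do. It was at 100.0, 149, 108 and 119 CPM at ZT8 and at 23.2, 164, 14.2 and 35.6 CPM at ZT12, where WT replicate 2 alone was high, and it passed the test without that library and not with it (-2.26, adjusted p = 2.09e-06, against -1.24 ± 0.56, adjusted p = 0.114).

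Of 17 cold-response genes, 7 fell and 0 rose (9 and 1 without WT ZT12 replicate 2). *RD29A*, a target of the CBF activators, fell from 121, 265, 129 and 208 CPM to 30.5, 44.9, 15.5 and 14.98 CPM (-2.87 ± 0.32, adjusted p = 0.000119). *CBF3* itself had 206 counts at ZT8 and 4 at ZT12, a ratio per read sequenced of 44.5 with an exact interval of 17.1 to 165, and *GOLS3*, for a galactinol synthase, fell by 3.89. Other cold genes did not pass the test. *KIN2* was at 156, 188, 193 and 213 CPM and 188, 198, 234 and 205 CPM (0.14 ± 0.10, adjusted p = 0.3). *COR15A*, a chloroplast protein induced by cold, was at 78.1, 208, 155 and 253 CPM and 70.8, 405, 109 and 186 CPM, with WT replicate 2 the highest at ZT12 (0.14 ± 0.51, adjusted p = 0.865, and -0.68 without it, adjusted p = 0.0686).

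Heat shock factors and chaperones gave 8 falls and 3 rises among 23 (12 and 3 without WT ZT12 replicate 2). The regulators *DREB2A* (-1.17) and *BAG6* (-1.10) fell, as did the small heat shock protein gene *HSP18.2* (-1.26), whose call was lost on leaving out any 1 of 4 libraries. *HSFA7A*, a heat shock factor, moved the opposite way, from 6.57, 7.08, 8.95 and 7.96 CPM to 24.9, 20.2, 40.8 and 35.7 CPM (1.95 ± 0.14, adjusted p = 8.56e-06), and *HSA32*, needed for long memory of heat, rose by 0.98. Both were without overlap.

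The remaining lists hold growth and organelle genes. Of 10 cell cycle genes, 0 were called in 8 libraries by edgeR or DESeq2 (median log2 change -0.47, 0 at an unadjusted p under 0.05) and 2 fell without that library (median -0.17). That library lay 1.55 below the other 3 ZT12 libraries on the log2 scale at the median of these genes, beside its high root markers. Of 297 genes described as cytosolic ribosomal proteins, 25 rose and 21 fell in 8 libraries. These shares of 8.42% and 7.07% stood below the 17.5% and 17.1% of all genes tested. Without that library 86 rose and 25 fell, and that library lay 0.64 below the other 3 at the median. Of 93 chloroplast-encoded genes, 28 fell and 0 rose (median -0.65), and 29 fell without it, but the number was 10 to 16 when WT ZT8 replicate 1, *ss4-1* ZT8 replicate 2 or *ss4-1* ZT12 replicate 1 was left out. The libraries were made from mRNA by kits that the labels name, and chloroplast transcripts were 0.205% to 0.662% of all counts. Of 9 mitochondrial genes tested, 0 were called in 8 libraries by edgeR and 1 by DESeq2 (4 at an unadjusted p under 0.05 in edgeR), 1 fell without WT ZT12 replicate 2 and 4 fell without WT ZT8 replicate 2.

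The same 2 times were sampled in WT at 22°C and 27°C with 1 library each, given as TPM (transcript abundance corrected for length and for depth). The deposited ZT12 columns at these temperatures carry a minus sign before the hour and were read as hours before the next dawn. These values came in a table of their own, have no replicates and were not tested. On the scale log2(TPM + 1), the median ratio of ZT12 over ZT8 over all genes tested was 0.36 at 22°C and 0.14 at 27°C, so ratios are read against those values. Of the genes that rose at 17°C, 80.3% lay above the all-gene median at 22°C and 84.7% at 27°C, and of those that fell, 80.5% and 82.9% lay below it. Without that subtraction, 49.4% of the genes that fell at 17°C were lower at 22°C and 71.0% at 27°C, against 21.4% and 36.4% of all genes tested. All 15 named rises and all 15 named falls lay on the same side at both temperatures, and 14 of the rises and 15 of the falls did so by 2-fold or more. *DIN1* went from 1.98 to 279 TPM at 22°C and from 3.89 to 419 TPM at 27°C. *GI* went from 60.8 to 0.365 TPM and from 60.96 to 0.987 TPM. *MIOX4* was the exception among the rises, at 0.133 and 0.635 TPM at 22°C and 0.667 and 1.02 TPM at 27°C.

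**Figure D5:**
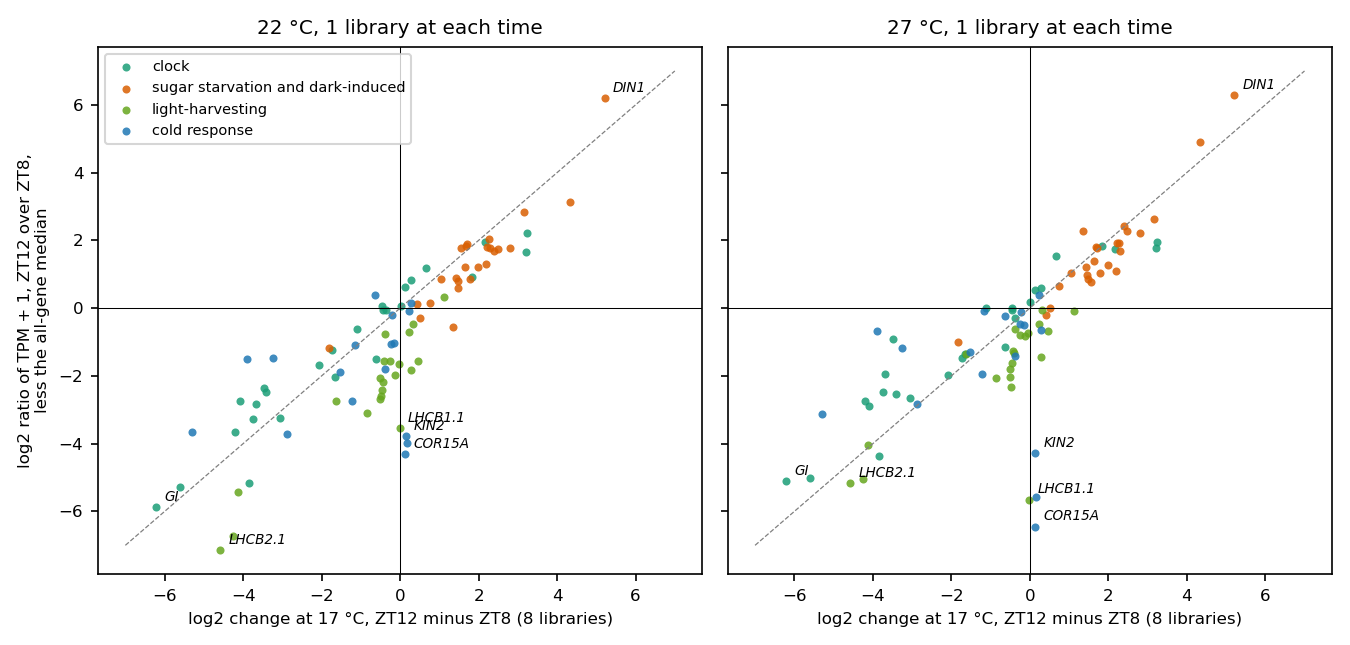
Log2 change at 17°C (x axis, 8 libraries) against the log2 ratio of TPM + 1 at 22°C or 27°C, less the all-gene median (y axis, 1 library at each time), for genes of the clock, sugar starvation, light-harvesting and cold lists, with the line of equality dashed. DIN1 and GI lie near the line, and LHCB1.1, COR15A and KIN2 lie near 0 at 17°C and far below 0 at both warmer temperatures.

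Some of the genes that did not pass the test at 17°C were much lower at ZT12 at the warmer temperatures. *LHCB1.1* went from 1535 to 169 TPM at 22°C and from 828 to 17.2 TPM at 27°C, against -0.01 on the log2 scale at 17°C. *COR15A* went from 504 to 31.8 TPM and from 324 to 3.11 TPM, and *KIN2* from 1151 to 107 TPM and from 788 to 43.6 TPM. Less the all-gene median, the median over the 21 light-harvesting genes was -2.06 at 22°C and -1.35 at 27°C, against -0.41 at 17°C, and over the 17 cold-response genes it was -1.50, -1.18 and -0.39. On the same scale the 19 Calvin cycle genes, at 0.30 at 17°C, had medians of -0.78 and -0.19. Chloroplast-encoded genes differed in the other direction, with 60 of 93 above the all-gene median at 22°C and 57 at 27°C. Without that subtraction, 67 were higher and 9 lower at 22°C, and 62 and 12 at 27°C. The rest of the 93 had equal TPM at both times and so stand among those not above the median. Whether temperature, library or processing differs here was not tested, since temperature and batch of libraries cannot be told apart. The sugar starvation genes had medians of 1.29 and 1.399 less the all-gene median, in the same direction as the 1.71 at 17°C.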

How the data were processed

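RNA-seq of whole seedlings (100 bp paired reads) was deposited by the authors as raw read counts per gene for the 17°C libraries and as TPM for the 22°C and 27°C libraries. The submitters' processing notes name FastQC, Trimmomatic, TopHat, Picard and the TAIR10 genome. The labels name a stranded and another library kit, and whether counting used strand is not given in the sources used here, so reads of overlapping or antisense genes and of near-identical copies cannot be told apart. Groups came from the labels.

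Counts were filtered with edgeR's filterByExpr, scaled by TMM and fitted with genotype and time in edgeR's quasi-likelihood test (edgeR 4.0.16, R 4.3.3), with p-values adjusted over all 20041 genes and called at 0.05. The adjusted p just inside and just outside this threshold were 0.0500 and 0.0500. The self-test used simulated counts. Library totals were 6638949 to 12444364 (median 9989682.5), so genes at a few counts per library are imprecise. Replicates need not be separate cultures, and p-values then measure only the spread between these libraries. Replicate pairs differed by more than sampling noise (chi-square per degree of freedom 3.65 to 24.5). DESeq2 1.42.0, other filters, other scaling, other models and leaving out each library were alternatives. TPM ratios used a pseudocount of 1. 2 TPM columns were not used.

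Named genes were the 15 largest log2 rises and the 15 largest falls among called genes with a mean of at least 10 CPM, no overlap between the times and a call without WT ZT12 replicate 2, all clock list members, the 2 largest changes in each direction of each other list, and the 3 smallest adjusted p in each direction for the genotype difference, of which the positive direction named none because of ties. Other genes named within a list, and SS4, were chosen after their values were seen. The members and lists were chosen with earlier results of these data known. Of 33557 genes in the files, 32810 matched the RefSeq annotation by locus, which gave symbols and upstream windows.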

Additional observations from a re-analysis of the deposited data

Results flagged for a closer look

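In 107 groups of 4 libraries, 7 had a library whose gap to the nearest of the others, as a share of the group's range, was above Dixon's 95% critical value, and chance gives about 5% of groups. WT ZT12 replicate 2 had 107.9 summed CPM of root hair markers, against 27.3 to 32.4 in the other 3 ZT12 libraries, and 1308 genes at least 2-fold off the mean of the others, against 70 to 120. WT ZT12 replicate 1 was high for *PRR5* (14.3 CPM, others 8.34 to 8.76) and for *CIPK20* (1.22 CPM, others 0.155 to 0.306). WT ZT8 replicate 1 was low for AT5G52660 (10.9 CPM, others 13.8 to 14.3). The library *ss4-1* replicate 1 was high for *RVE2* at ZT8 (16.8 CPM, others 14.4 to 14.7) and for *RVE4* at ZT12 (57.9 CPM, others 46.4 to 47.6).

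The evening change of 2 genes passed the test of a genotype difference once WT ZT12 replicate 2 was left out, which leaves WT at ZT12 with 1 library that is assumed to vary like the other groups. The log2 difference, *ss4-1* minus WT, was -2.10 for *LHCB2.1* (edgeR adjusted p = 0.0135) and -1.70 for *LHCB2.2* (adjusted p = 0.0391), and with all 8 libraries it was -1.96 (adjusted p = 0.735) and -1.60 (adjusted p = 0.753). Both genes were also called by DESeq2 with all 8 libraries and by edgeR with all 32 libraries in the fit. They are near-identical copies.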

How the results depend on the processing

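The count of called genes stayed within 1.5 times of 6931 under DESeq2 (6755), DESeq2 size factors (6928), no filter (6966), at least 10 counts in every library (6563), robust empirical Bayes (6936), organelle and ribosomal RNA genes left out (6911), a genotype by time model (6687), all 32 libraries (9512) and *ss4-1* alone (6297), and ranged from 4999 to 8916 on leaving out 1 library, the highest without WT ZT12 replicate 2. WT alone gave 915 (500 higher, 415 lower). Fitted on libraries of their own, the genotypes gave 915 in WT and 6297 in *ss4-1*, against 3340 and 3569 in the shared model. The genotype difference, 0 genes in 8 libraries, was called for 3 under DESeq2, 1 with no filter, 3 with all 32 libraries and 0 to 1956 on leaving out 1 library. With the evening element read on the forward strand only, the shares were 1.32% of all genes, 0.806% of those that rose and 2.44% of those that fell.

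Of 1593 values of 85 single genes under alternatives, 57 lost and 6 gained a call. Where the gene was called in the main or the alternative fit, 0 changed direction. Sign changes of genes called in neither fit were not counted. Of the 57, 24 were in the WT-only fit, and 8 genes lost theirs on leaving out 1 library (*HSP18.2*, *NIR1*, *PIL1*, *LHCB1.3*, *PIF1*, *ATHB2*, *BAM4* and *LHCB3*). Among the 30 genes named by size, 29 kept the call with WT alone, the exception being AT4G27450. Of 680 list counts, 55 moved by over 1.5 times or changed to or from 0.

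Replicate numbers did not pair the libraries: deviations of same-numbered libraries correlated at -0.0357 to 0.116. A replicate block gave 6849 genes, 3447 higher and 3402 lower, and, chosen after seeing the data, 9021 without WT ZT12 replicate 2, where DESeq2 gave 7429. The per-read ratio of *GPT2*, 138, was 71.3 to 182 on leaving out 1 library, also chosen after seeing the data. Depth limits genes such as *GPT2* and *CBF3*, with 7 and 4 counts at ZT12.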
